A study of Mus musculus with 21 samples.

Results

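Lin28a, Lin28b and 6 genes whose mRNAs are known targets of let-7 (Trim71, Hmga1, Hmga2, Igf2bp1, Igf2bp2 and Igf2bp3) were followed in the RNA of mouse cranial neural crest cells (CNCCs) and of whole pharyngeal arches. The 8 genes were taken by symbol from 24594 genes in each of 2 count tables. In animals this circuit acts as a developmental timer: LIN28 proteins bind the precursors of let-7 microRNAs and hold back their maturation, and mature let-7 in turn pairs with sites in the 3′ UTRs of Lin28 and of other early genes and lowers their output. The targets include chromatin proteins (HMGA1 and HMGA2), RNA-binding proteins that stabilise, localise or control the translation of mRNAs (IGF2BP1, IGF2BP2 and IGF2BP3) and TRIM71, the mouse relative of worm LIN-41. Small RNAs were not assayed, so mature let-7 itself has no value here.

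The stage series had 3 groups of 3 libraries from Wnt1::Cre;ROSA-RFP embryos without a further mutation: PA2, the second pharyngeal arch, of E10.5 embryos, and the pinna (the outer ear that grows from PA2) at E12.5 and at E14.5. In these embryos Cre under the Wnt1 promoter leaves a permanent red mark on neural crest and its descendants, and marked cells were sorted, so crest-derived glia and pigment cells are part of each group. The genotype series had 4 groups of 3 libraries from E10.5 embryos: PA2 and the third arch (PA3) of WT embryos, and PA2 and PA3 of embryos homozygous for the HIRE1 deletion (HIRE1del/del), a Cas9 deletion of a distant enhancer region of the Hoxa genes made in C57Bl/6J zygotes. No sorting is stated for this series, although its labels also name CNCCs. All mice were of a mixed C57Bl/6J and CD1 background, embryos of both sexes were pooled, and the methods call the 3 replicates independent. Between E10.5 and E12.5 stage changes with tissue (PA2 to pinna) under the same trypsin digestion. Between E12.5 and E14.5 it changes with digestion (trypsin to papain) and depth (25.8 to 29.5 M counts against 47.5 to 49.1 M) in the same tissue. Within each step these cannot be told apart.

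Libraries held 25.8 to 49.1 M counts, with the highest totals at E14.5. Values are CPM (counts scaled to a common library total, after TMM scaling), and comparisons between genes use CPM per kilobase of exon. In the sorted cells the 6 neural crest mesenchyme markers together stood at 1627 to 3991 CPM, while the 4 muscle markers summed to at most 1.08 CPM and the 6 erythroid markers to at most 11.6 CPM. In the whole arches the erythroid sum was 1526 to 24432 CPM. Hoxa2, the gene that HIRE1 is known to serve, fell in HIRE1del from 78.3 ± 5.49 to 5.87 ± 1.17 CPM in PA2 and from 61.4 ± 4.72 to 23.8 ± 1.75 CPM in PA3 (mean ± SD, n = 3), which matches the labels.

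The let-7 family is defined by its seed, bases 2 to 8 of the microRNA, shown in capitals in these mature sequences from RefSeq (GRCm38.p6). They are shown because the seed is what the members' 3′ UTRs are searched with. In the set searched, the seed GAGGUAG was shared by 10 mature microRNAs from 12 loci, and this set may not hold every locus of the family. The sequence of mmu-miR-125b-5p, the mammalian relative of worm lin-4, carries another seed.
mmu-let-7a-5p: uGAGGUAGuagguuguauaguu
mmu-let-7g-5p: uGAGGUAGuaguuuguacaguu
mmu-let-7i-5p: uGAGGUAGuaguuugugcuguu
mmu-miR-98-5p: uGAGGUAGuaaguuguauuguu
mmu-miR-125b-5p: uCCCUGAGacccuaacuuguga

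A 3′ UTR was taken for each gene from GENCODE M21 (GRCm38), and the sense strand was searched for CTACCTC, the match to the let-7 seed. When an A follows, the match is an 8mer. All 8 members held at least 1 match: 4 each in Lin28b, Hmga2, Igf2bp1 and Trim71, 2 in Lin28a, and 1 each in Hmga1, Igf2bp2 and Igf2bp3. Among the 12708 tested genes of the stage table with a 3′ UTR, 10.7% held at least 1 match and 3.76% at least 1 8mer. The members were chosen as parts and targets of the let-7 circuit, so matches in them were likely from the start. The share with a match also depends on length: it was 3.81% for 3′ UTRs under 1000 bases and 30.2% from 4000 bases on. The members' 3′ UTRs had 1183 to 6337 bases. Every member but Hmga1 held an 8mer, and in Trim71 all 4 matches were 8mers.

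These windows of 29 bases, 5′ to 3′ on the transcript, show a site of each member with the seed match in capitals, so that its flank and the base after it can be compared. All lie within exons, in the 3′ UTR.
Lin28a, chr4:134005189-134005217, minus strand: tggagtgcacagcctgttgaaCTACCTCa
Lin28b, chr10:45381022-45381050, minus strand: cccttcacccgggcgggaagtCTACCTCa
Trim71, chr9:114509047-114509075, minus strand: attttgtttagtatggattttCTACCTCa
Trim71, chr9:114509021-114509049, minus strand: tcaattttggcaaaaagttgtCTACCTCa
Hmga1, chr17:27563271-27563299, plus strand: atcttctcctctgttcacaaaCTACCTCt
Hmga2, chr10:120364224-120364252, minus strand: gggggcgccgacattcaatttCTACCTCa
Igf2bp1, chr11:95961778-95961806, minus strand: ggcagtgctgtgcgaagtaaaCTACCTCa
Igf2bp2, chr16:22059473-22059501, minus strand: agaaaaacacacaaataaaagCTACCTCa
Igf2bp3, chr6:49086787-49086815, minus strand: taaacgtgcatttttactcaaCTACCTCa

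The first site of Lin28b began 36 bases after the stop codon and that of Hmga2 58 bases after it. Those of Igf2bp1 and Igf2bp2 lay further down, 1715 and 1313 bases after the stop. The windows shown for Trim71 come from neighbouring sites, 3591 and 3617 bases after its stop. A match to the miR-125 seed (CTCAGGG, found in 16.0% of the same 3′ UTRs) was present in 4 members, Lin28a, Lin28b, Trim71 and Igf2bp3, with 1 match each. In Lin28a it lay 797 bases after the stop codon, ahead of the let-7 matches at 909 and 1547 bases:
Lin28a miR-125 match, chr4:134005301-134005329, minus strand: gttctcaggtacatgagcaatCTCAGGGa

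Across the stage series the members did not follow a single course. Lin28a, Lin28b, Igf2bp1 and Igf2bp3 fell at each step, Trim71 fell in the first step alone, Igf2bp2 moved little, and Hmga2 rose in the E12.5 pinna before it fell. From E10.5 to E12.5, 6 of the 7 members tested fell and 1 rose, where 68.8% of all 13438 genes tested changed (33.7% lower and 35% higher). From E12.5 to E14.5, 5 members fell and none rose by the edgeR test, against 65.7% of all genes (33.1% lower and 32.6% higher). Between E10.5 and E14.5, 6 members fell and none rose, against 82% of all genes (40% lower and 42% higher). Lin28a was among the members tested only because it was high at E10.5. It is counted among those that fell in each of the 3 comparisons, which share libraries. The median log2 fold change of the 7 members between E10.5 and E14.5 was -3.11, against 0.02 over all genes. It is the value of Igf2bp1 and counts Lin28a among the larger falls, so it depends on a member that passed the filter through E10.5. Without Lin28a the middle of the members lies between Igf2bp1 (-3.11) and Igf2bp3 (-1.68). Any Lin28a value below it, such as the bound given below, leaves the median in place, so the bound does not show what Lin28a adds. Since most genes changed between these stages, the sizes say more than the number of calls. In bulk RNA, fewer cells of a kind and less RNA per cell cannot be told apart.

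**Figure D1:**
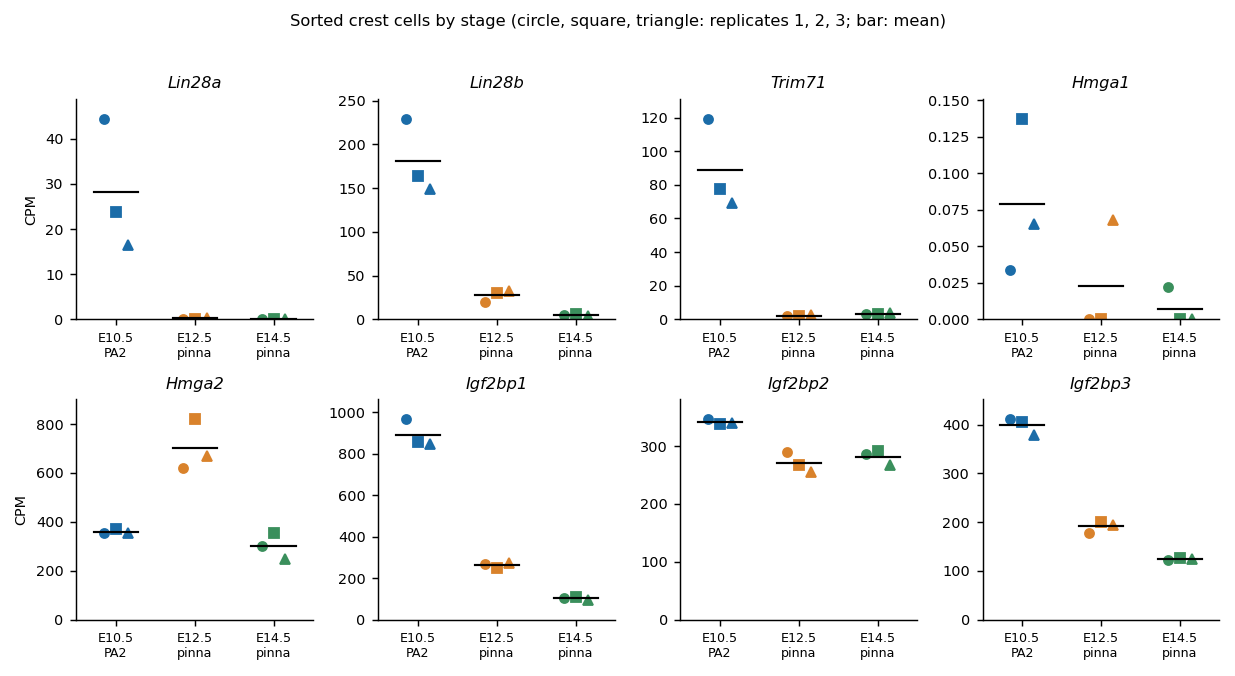
CPM of the 8 members (vertical axis, linear, from 0, with its own range in each panel) in the 9 sorted-crest libraries of the stage series; each symbol is a library and the bar is the mean of 3. Lin28a, Lin28b and Trim71 are high at E10.5 alone, Hmga2 is highest at E12.5, and the Hmga1 panel spans only 0 to 4 counts.

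Lin28a, which acts mainly on let-7 precursors in the cytoplasm, had 44.4, 23.8 and 16.4 CPM in the E10.5 libraries (1327, 694 and 502 counts). At E12.5 it had 2, 5 and 9 counts, or 0.0743, 0.163 and 0.306 CPM, and in the E14.5 libraries it had 0 counts. The gene was thus at the edge of detection once the crest cells were in the pinna. The first step was a log2 fold change of -7.23 ± 0.53 (SE, edgeR adjusted p = 2.22e-06). Against a floor of 3 counts in an E14.5 library, which is at most 0.0661 CPM, the E10.5 mean of 28.2 CPM was at least 427-fold higher and the E12.5 mean of 0.181 CPM at least 2.74-fold higher. The second step rests on 16 counts in all at E12.5: its edgeR adjusted p of 0.0357 rose to as much as 0.11 when a single library was left out, and the call was lost without replicate 2 or 3 of E12.5 or without any of the E14.5 libraries.

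Lin28b, its relative that also has a nuclear pool, stood at 229, 164 and 149 CPM at E10.5. It was at 19.7, 30.2 and 32.3 CPM at E12.5 and at 4.87, 5.49 and 4.05 CPM at E14.5, so no library of a later stage reached the lowest of the stage before. The first step was -2.72 ± 0.20 and the second -2.51 ± 0.22 on the log2 scale (edgeR adjusted p = 4.22e-07 and 2.13e-06). These sizes did not differ detectably, with a difference of 0.21 and a 95% interval from -0.57 to 0.98. At E14.5, 2.66% of the E10.5 level was left.

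Trim71, an RNA-binding protein with the ring domain of a ubiquitin ligase, had 119, 77.6 and 69.4 CPM at E10.5 and 2.15, 2.09 and 2.24 CPM at E12.5. That fall of -5.36 ± 0.22 on the log2 scale (edgeR adjusted p = 6.08e-09) took it to 2.44% of its E10.5 level in that step, where Lin28b kept 15.2%. At E14.5 Trim71 stood at 2.84, 3.34 and 3.50 CPM. The 3 values lay above those of E12.5, but the difference of 0.58 ± 0.25 did not pass (edgeR adjusted p = 0.0584). The second step differed from the first by 5.94 ± 0.42 (edgeR adjusted p = 1.27e-06).

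Hmga2, an architectural protein that binds AT-rich DNA, had 354, 369 and 353 CPM at E10.5 and 620, 819 and 670 CPM at E12.5. It then had 302, 353 and 246 CPM at E14.5. Every E12.5 library lay above those of both other stages, and the highest E14.5 library was level with the lowest of E10.5. The rise was 0.97 ± 0.13 and the fall -1.23 ± 0.13 (edgeR adjusted p = 3.90e-05 and 7.98e-06), and the steps differed by -2.20 ± 0.21 (edgeR adjusted p = 1.24e-05). Between E10.5 and E14.5 the difference was -0.26 with a 95% interval from -0.53 to 0.02 (edgeR adjusted p = 0.0792). Without replicate 2 of E14.5 it was called (edgeR adjusted p = 0.013).

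Hmga1 had 0 to 4 counts in every library of the stage series and was not tested there. In the genotype series, read from both ends of each fragment, it had 361 to 493 counts. Of the 50-base words of its transcript, 69.1% also occur in transcripts of other genes, chiefly Hmga1b, a copy on chromosome 11 that showed the same contrast (0 to 3 counts against 171 to 283). The stage values of Hmga1 therefore give no level of the gene, and the part of shared reads in this was not tested.

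The IGF2BP genes encode a family of RNA-binding proteins that share their targets in part. Igf2bp1 had 965, 859 and 846 CPM at E10.5, then 270, 249 and 273 CPM, then 105, 111 and 94.4 CPM, with steps of -1.75 ± 0.08 and -1.35 ± 0.08 on the log2 scale (edgeR adjusted p = 1.15e-08 and 8.66e-08). Igf2bp3 had 411, 405 and 380 CPM, then 179, 201 and 195 CPM, then 123, 126 and 124 CPM, with steps of -1.06 ± 0.06 and -0.62 ± 0.06 (edgeR adjusted p = 6.70e-08 and 4.56e-06). Igf2bp2 had 346, 338 and 340 CPM at E10.5, 290, 267 and 255 CPM at E12.5, and 287, 291 and 268 CPM at E14.5.

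All of its later values lay below those of E10.5, but the fall of Igf2bp2 was small, -0.34 ± 0.06 in the first step (edgeR adjusted p = 4.90e-04), and its second step was 0.06 with a 95% interval from -0.07 to 0.19. The second step was less negative than the first in each of the 3 genes (differences of 0.40 for Igf2bp1, 0.40 for Igf2bp2 and 0.43 for Igf2bp3, edgeR adjusted p = 0.031, 0.0112 and 0.00613). In all, the steps differed for 5 members, 4 with a higher second step and 1, Hmga2, with a lower one, against 43.4% of all genes (20.5% higher and 22.9% lower). With scaling by total counts alone, which moved the median difference of all genes to -0.19, the 3 Igf2bp calls were lost, leaving 2 members. Igf2bp1 also lost its call when replicate 1 of E10.5, any E12.5 library, or replicate 1 or 2 of E14.5 was left out, and Igf2bp2 without replicate 3 of E12.5, which left 3 members. The Igf2bp3 gene overlaps the end of Malsu1, and 34.5% of its 50-base words are also in Malsu1 transcripts when both strands are searched. Malsu1 was at 14.4 to 20.1 CPM in the stage series, and its part in the Igf2bp3 values was not tested.

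**Figure D2:**
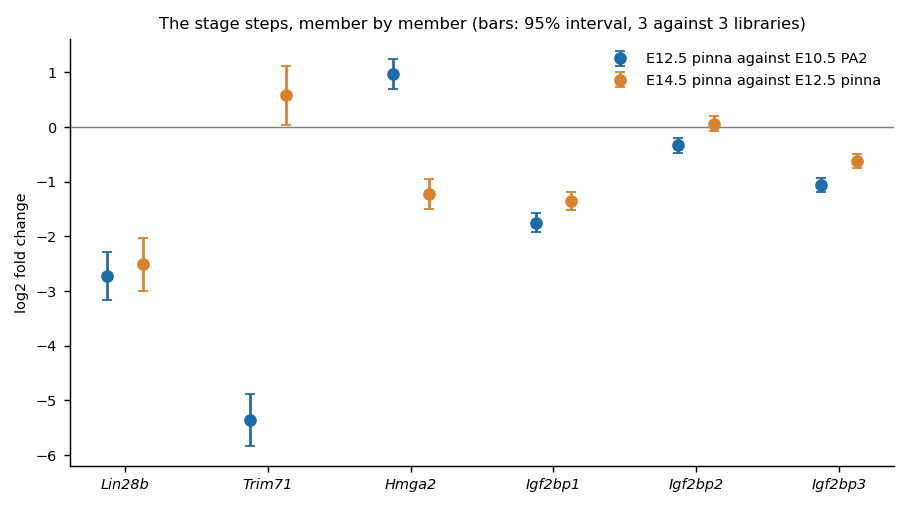
Log2 fold change of each stage step (vertical axis) for 6 members, with blue for E12.5 pinna against E10.5 PA2 and orange for E14.5 against E12.5 pinna; points are edgeR estimates and bars 95% intervals. The 2 steps of Lin28b are alike in size, Trim71 falls in the first alone, Hmga2 changes sign, and Igf2bp2 lies near 0; Lin28a is left out because it has 0 counts at E14.5.

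Per kilobase of exon, the order of the members changed. At E10.5 Igf2bp1 was highest (91.9 ± 6.76 CPM per kilobase), followed by Hmga2 (53.0 ± 1.29), Igf2bp3 (48.9 ± 2.05), Igf2bp2 (46.1 ± 0.59), Lin28b (19.9 ± 4.68), Trim71 (9.51 ± 2.86) and Lin28a (7.06 ± 3.63). The neighbours Igf2bp3 and Igf2bp2, and likewise Trim71 and Lin28a, overlapped between libraries. At E14.5 Hmga2 (44.4 ± 7.88 CPM per kilobase) and Igf2bp2 (38.1 ± 1.70) were on top and overlapped, ahead of Igf2bp3 (15.2 ± 0.21), Igf2bp1 (10.7 ± 0.88), Lin28b (0.53 ± 0.08) and Trim71 (0.35 ± 0.04).

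Ratios within a library, which hardly depend on scaling where both values are far above the 0.5 CPM added, showed how the IGF2BP genes changed places. The log2 ratio of Igf2bp1 to Igf2bp2 in CPM, with 0.5 CPM added, went from 1.38 ± 0.09 at E10.5 to -0.03 ± 0.12 at E12.5 and -1.45 ± 0.06 at E14.5 (mean ± SD, n = 3). That of Igf2bp3 to Igf2bp2 went from 0.22 ± 0.06 to -1.18 ± 0.06 between E10.5 and E14.5, and that of Igf2bp1 to Igf2bp3 from 1.16 ± 0.07 to -0.27 ± 0.11. In each of these pairs the 3 E14.5 libraries lay below the 3 of E10.5, with an exact two-sided permutation p of 0.1, the smallest that 3 against 3 libraries allow (0.125 after adjustment over 5 pairs). The Lin28a to Lin28b ratio (p = 0.1 in the same exact test) changed sign of its difference with the CPM added, and that of Hmga2 to Hmga1 rests on the few Hmga1 counts.

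Other markers moved with stage in the same libraries. The 15 cell cycle genes summed to 6022 to 6598 CPM at E10.5, 3152 to 3347 CPM at E12.5 and 1583 to 2021 CPM at E14.5. Between E10.5 and E14.5, 14 of them fell, where 40% of all genes fell and 42% rose. The 6 glia and melanocyte markers all rose, from a sum of 16.8 to 18.5 CPM to one of 345 to 402 CPM. The sum of the 4 endothelial markers went from 6.52 to 8.82 CPM to 108 to 172 CPM, but 1 of them alone was called, Kdr, which went from 3.26 ± 0.36 to 141 ± 34.8 CPM. The sum of the 4 neuron markers went from 33.1 to 39.6 CPM to 2.17 to 2.64 CPM, and the 2 that could be tested fell. At E14.5 every glia and melanocyte marker had a mean of at least 1 CPM, while 1 of the 4 endothelial and 3 of the 4 neuron markers were under that level. The part of these cells in the members' values was not tested.

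Genes of the machinery that makes and uses microRNAs went both ways, with more that fell. Of 15 tested genes of this list, 10 fell and 4 rose between E10.5 and E14.5, with a median log2 fold change of -0.46. Over all genes, 40% fell and 42% rose. The processing enzymes and carriers fell furthest: Dicer1, which cuts the hairpin, went from a mean of 505 to one of 214 CPM (-1.24 ± 0.05, edgeR adjusted p = 2.15e-09), while Drosha, which frees it from the primary transcript, and Xpo5, which exports it, fell by 1.15 and 1.09 on the log2 scale. Khsrp, which promotes let-7 processing, fell from 317 ± 10.6 to 148 ± 3.24 CPM. Ago4 (1.26), Ago3 (0.89), Tnrc6c (0.65) and Tnrc6b (0.45), parts of the silencing complex, rose. Dgcr8, the partner of Drosha, had 0 or 1 count in each stage library and was not tested. It had 37 to 88 counts in the genotype series, so as for Hmga1 the stage counts are not read as a level of the gene. Of its 50-base words, 26.3% are shared with other genes, against 69.1% for Hmga1, and the part of shared reads was not tested.

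The enzymes that tail or degrade let-7 precursors split as well. Tut4, which LIN28 recruits to add uridines, fell from 339 ± 11.2 to 199 ± 15.9 CPM (-0.77 ± 0.07, edgeR adjusted p = 8.19e-07), while Tut7, its close relative, rose from 121 ± 2.68 to 166 ± 6.68 CPM (0.46 ± 0.05, edgeR adjusted p = 9.65e-06). Tent2, a terminal nucleotidyltransferase, fell by 0.37 and Dis3l2, the nuclease that degrades the tailed precursor, by 0.18, while Tent4b, of the same family as Tent2, rose by 0.19. In all, 3 of 6 fell and 2 rose, near the share of all genes called (82%, with 40% lower and 42% higher). Without replicate 3 of E10.5 or replicate 3 of E14.5, 3 in place of 5 were called.

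Primary let-7 and miR-125 transcripts were seen mainly through their host genes. Mir100hg, which of the hairpins searched spans Mir125b-1, had 73.8, 75.0 and 90.5 CPM at E10.5. It had 240, 286 and 270 CPM at E12.5, and 153, 190 and 158 CPM at E14.5. Mir99ahg, which spans Mirlet7c-1 and Mir125b-2, had 18.7, 21.5 and 23.2 CPM, then 42.0, 42.4 and 34.5 CPM, then 19.5, 18.6 and 19.6 CPM. Both hosts were thus highest at E12.5, the stage at which Hmga2 was highest, and a relation between them was not tested. Their first steps were 1.73 and 0.91 and their second -0.67 and -1.05 on the log2 scale (edgeR adjusted p of at most 1.80e-04).

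Wdr82, host of Mirlet7g, and Huwe1, host of Mirlet7f-2 and Mir98, are protein-coding genes that fell by 0.37 and 0.39 between E10.5 and E14.5, and Spaca6, host of Mirlet7e and Mir125a, fell by 0.21. Of the 20 hairpin and host genes listed, 9 were tested, 2 rose and 3 fell, where 42% of all genes rose and 40% fell. Without replicate 1 of E14.5, 3 in place of 5 were called. The 15 hairpin genes had from 0 to 320 counts in a library, the most in Mir125b-2, and such counts come from long RNA fragments, which measure no mature microRNA.

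Other known let-7 targets went both ways. Of 31 tested, 16 fell and 12 rose between E10.5 and E14.5, with a median of -0.32, where 40% of all genes fell and 42% rose. Igdcc3, an immunoglobulin-family surface protein, went from 144 ± 36.0 to 4.59 ± 0.85 CPM (-4.97 ± 0.19, edgeR adjusted p = 7.19e-10), and Mycn, a proto-oncogene of progenitor growth, from 107 ± 3.53 to 9.33 ± 1.64 CPM (-3.52 ± 0.11, edgeR adjusted p = 1.73e-10). Arid3b and Dna2 fell by 2.93 and 2.73. The collagen genes Col1a2 (from 765 ± 176 to 13667 ± 1979 CPM) and Col3a1 (from 2244 ± 143 to 23690 ± 4189 CPM), components of connective tissue matrix, rose, as did Stard13 (2.20) and Thbs1 (from 70.3 ± 15.9 to 178 ± 12.8 CPM).

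The relation between let-7 matches and change over all genes differed with the number of matches and the length of the 3′ UTR. Genes with at least 1 match had a median log2 fold change of 0.07 between E10.5 and E14.5 (1360 genes, 45.1% higher and 38.7% lower), against 0.01 for the 11348 genes with none (41.7% and 40.6%). The 149 genes with 2 matches had a median of -0.13 (38.9% higher and 45.6% lower). With 3 or more matches there were 26 genes, 4 of them members, and of the other 22, 11 rose and 10 fell, with a median of 0.14. Genes with a match had longer 3′ UTRs (a median of 2432 bases against 1139), and longer 3′ UTRs went with higher medians. Within a class of length, medians with and without a match were -0.06 and -0.19 under 1000 bases, -0.03 and 0.07 from 1000 to 2000 bases, 0.16 and 0.21 from 2000 to 4000 bases, and 0.17 and 0.41 from 4000 bases on (343 and 793 genes). In that last class 36.2% of genes with a match and 25% of those without fell. Matches were thus beside lower medians in the 3 classes of longer 3′ UTRs and beside a higher one in the shortest.

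With 3 or more 8mers there were 7 genes. Trim71, Igf2bp1, Trim6 (-4.23), Fignl2 (-3.13) and Fign (-2.10) fell and Mcf2l (1.51) and Nr6a1 (0.36) rose.

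**Figure D3:**
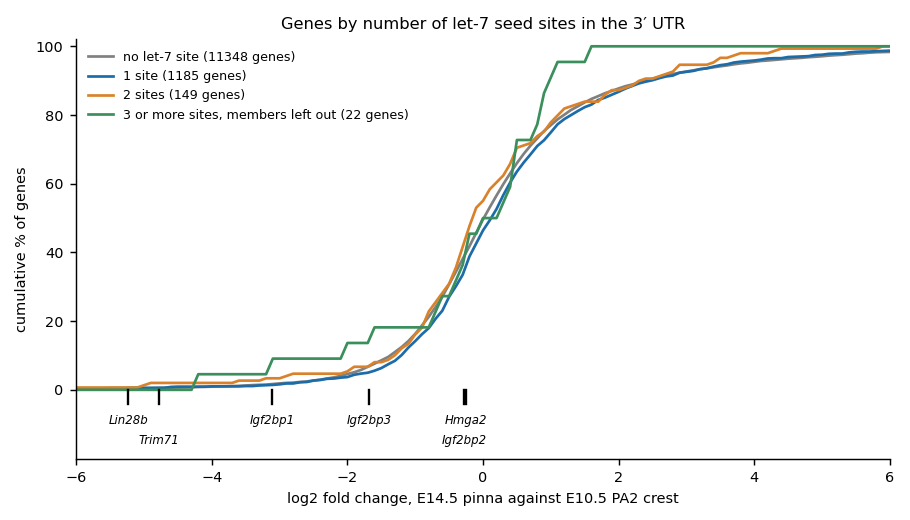
Cumulative share of genes (vertical axis, %) at or below each log2 fold change of E14.5 against E10.5 (horizontal axis), for genes with 0, 1, 2 or at least 3 (members left out) let-7 seed matches in the 3′ UTR, with black ticks at 6 members. The curves run close together around 0, while Lin28b, Trim71, Igf2bp1 and Igf2bp3 lie in the left tail and Hmga2 and Igf2bp2 near the middle.

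RNAs bound by the IGF2BP proteins went both ways. Igf2, the transcript that gave the family its name, fell from 758 ± 50.4 to 392 ± 42.4 CPM (-0.95 ± 0.08, edgeR adjusted p = 4.66e-07) and Actb, whose mRNA IGF2BP1 localises, by 0.99. Cd44, an adhesion receptor, rose from 0.90 ± 0.24 to 47.7 ± 4.45 CPM (5.72 ± 0.16, edgeR adjusted p = 8.54e-11) and Myc by 0.67. The H19 change of -0.04 was not called.

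The genes most like a member were ranked by Pearson's r of log2(CPM + 1) over the 9 stage libraries, which fall into 3 stages, so r mostly reflects the 3 stage means. For Lin28a these were Sall3, Gm5127, Crym, Cyp26a1 and Prtg (r from 0.996 to 0.999), which, like it, had most of their expression at E10.5. For Hmga2 they were Sp4, Nrep, Tll1, Map3k5 and Dlx6 (r from 0.978 to 0.986), each highest at E12.5. Dlx6, a homeobox gene of the lower jaw and arches, had 53.7, 107 and 40.5 CPM on average at the 3 stages. For Igf2bp3 they were Chek2, Cks1b, E2f3, Trps1 and Poc1a (r at least 0.998), of which Chek2, Cks1b and E2f3 are cell cycle or checkpoint genes. For Lin28b they were Mrpl27, A430005L14Rik, Psmb7, Rsl24d1 and Dcp2 (r at least 0.997), whose falls were smaller, such as Psmb7 from 206 to 80.4 CPM.

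The genotype series compares HIRE1del with WT in arches where Hoxa2 and Hoxa3 fell. Of the 8 members, 0 were called by edgeR in PA2, where 0.438% of 14383 genes were called (0.118% higher and 0.32% lower), and 0 in PA3, where 0.216% were (0.0556% higher and 0.16% lower). For the difference of the effect between arches 0 were called, against 0.0487% of all genes, every one of them lower. In these 3 comparisons 0 members had an unadjusted edgeR p under 0.05, and DESeq2 and limma-voom also called 0. Replicate ranges of WT and HIRE1del overlapped for every member in both arches. The intervals were narrow for the steady genes and wide for the variable ones: the log2 fold change in PA2 was -0.02 for Igf2bp3, with a 95% interval from -0.13 to 0.09, and -0.09 for Lin28a, from -0.98 to 0.80. Hmga2 had 359, 353 and 350 CPM in PA2 of WT and 345, 364 and 419 CPM in PA2 of HIRE1del, a change of 0.09 (from -0.05 to 0.23).

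Igf2bp3 lies on chromosome 6, the chromosome of Hoxa2, from 49085223 to 49214957, and Hoxa2 lies from 52162417 to 52164831 (GRCm38). Of the nearest tested genes around Igf2bp3, Gpnmb, Malsu1 and Tra2a were not called in either arch. Ccdc126 was lower in HIRE1del in PA3 (-0.87, edgeR adjusted p = 0.0389), and its value in PA2 was -0.67 (edgeR adjusted p = 0.086).

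**Figure D4:**
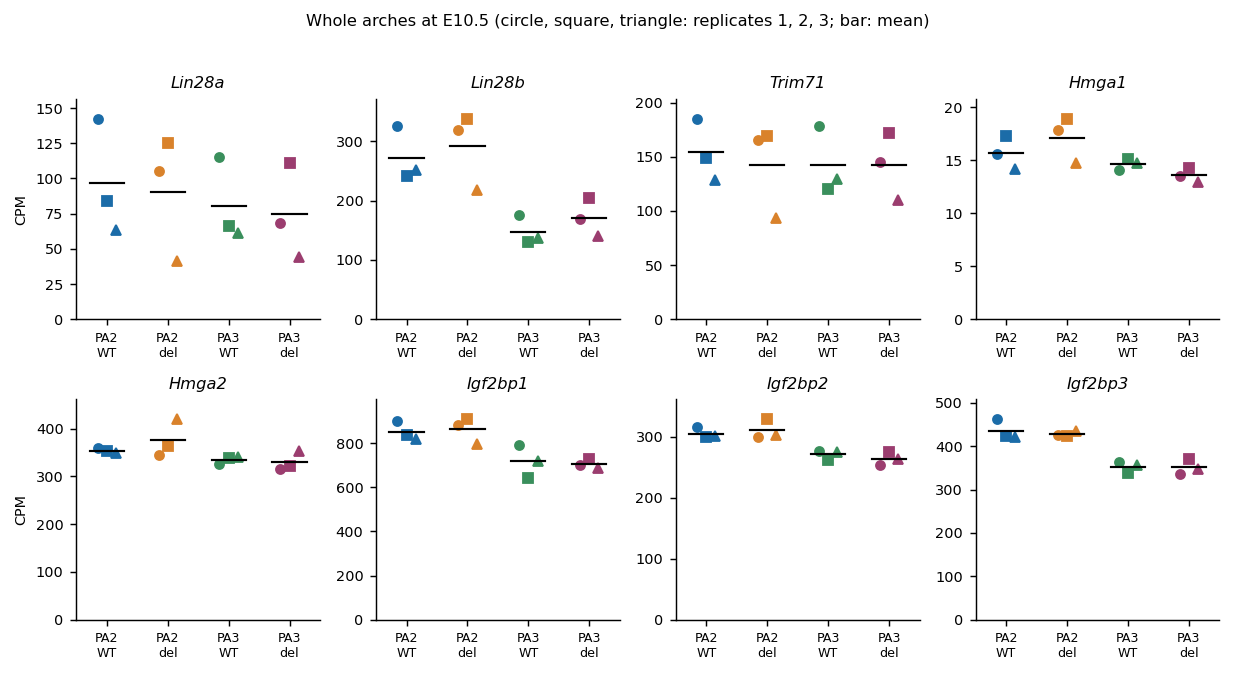
CPM of the 8 members (vertical axis, linear, from 0) in the 12 whole-arch libraries at E10.5, by arch and genotype (del is HIRE1del); each symbol is a library and the bar is the mean of 3. WT and HIRE1del overlap in each panel, Lin28b is lower in PA3 than in PA2, and Lin28a spreads widely within each group.

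Between the arches, Lin28b differed most. In WT it had 325, 242 and 251 CPM in PA2 and 176, 130 and 138 CPM in PA3, and in HIRE1del 318, 337 and 218 CPM in PA2 and 169, 204 and 140 CPM in PA3. In each genotype the arches did not overlap, with log2 fold changes of -0.88 ± 0.18 and -0.77 ± 0.18 (edgeR adjusted p = 0.00181 and 0.00464). Lin28a and Trim71 were not called: Trim71 was at -0.11 in WT (95% interval from -0.59 to 0.38) and 0.00 in HIRE1del, and Lin28a at -0.26 and -0.28, with intervals that reach beyond 1 in size.

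Igf2bp3 (-0.31 and -0.29), Igf2bp1 (-0.25 and -0.29) and Igf2bp2 (-0.17 and -0.23) were also lower in PA3 in WT and in HIRE1del. So 4 members were called in WT, all lower, against 36.5% of all genes (17.4% lower and 19.1% higher), and 6 in HIRE1del, all lower, against 33.4% (14.7% lower and 18.7% higher), where Hmga1 (-0.34) and Hmga2 (-0.19) also passed. In WT the calls of Igf2bp1 and Igf2bp2 were lost without replicate 1 of PA2 or replicate 2 of PA3, leaving 2. In HIRE1del the edgeR adjusted p of Hmga1 rose to as much as 0.11, and the call was lost, without replicate 1 or 2 of PA2 or replicate 1 or 3 of PA3. That of Hmga2 rose to as much as 0.185, and the call was lost, without replicate 2 or 3 of PA2 or replicate 1 or 2 of PA3. The difference between genotypes was not called for any member. In the same libraries the erythroid markers summed to 1526 to 3308 CPM in PA2 and 12360 to 24432 CPM in PA3, and the neural crest mesenchyme markers to 1010 to 1151 CPM in PA2 and 656 to 873 CPM in PA3. The neuron markers summed to 51.9 to 73.9 CPM in PA2 and 115 to 186 CPM in PA3, and the epithelial markers to 170 to 204 CPM and 337 to 524 CPM. In each genotype 4 of 6 epithelial, 3 of 4 endothelial, 4 of 4 neuron and 6 of 6 erythroid markers were called higher in PA3. The part of these cells in the arch differences was not tested.

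At E10.5, replicates of a group differed more in Lin28a (1.89 to 3.01 times between the highest and the lowest), Trim71 (1.44 to 1.81 times) and Lin28b (at most 1.55 times and, in each group, more than any of the 4 genes named next) than in Hmga2 and the Igf2bp genes (1.02 to 1.24 times). At E12.5 Trim71 differed less (1.07 times) than Hmga2 (1.32 times). In PA2 of HIRE1del, Lin28a had from 41.6 CPM in replicate 3 to 105 CPM in replicate 1 and more in replicate 2, and Trim71 166, 169 and 93.3 CPM, while Igf2bp3 had 426, 424 and 436 CPM. In PA2 of WT, Lin28a had 142, 83.7 and 63.4 CPM and Trim71 185, 149 and 128 CPM. For Lin28a, Lin28b and Trim71 replicate 1 was highest in WT in both arches, and replicate 3 lowest in HIRE1del in both arches. Igf2bp1 had the same highest replicate in WT and the same lowest in HIRE1del, over a narrower range (901, 838 and 817 CPM in PA2 of WT). Igf2bp2 and Igf2bp3 were also highest in replicate 1 of WT in both arches, but not lowest in replicate 3 of HIRE1del. In HIRE1del Hmga2 was instead highest in replicate 3 (419 CPM in PA2 and 353 CPM in PA3). Arches of the same genotype and number deviated together over all genes, so they may not be separate observations. In PA3, Lin28a had 115, 65.9 and 61.0 CPM in WT and 68.2, 111 and 44.5 CPM in HIRE1del. In the sorted E10.5 crest, too, replicate 1 was highest in Lin28a, Lin28b and Trim71, and likewise in Igf2bp1, Igf2bp2 and Igf2bp3. There Lin28a differed by 2.71 times between replicates against 1.02 times for Igf2bp2.

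**Figure D5:**
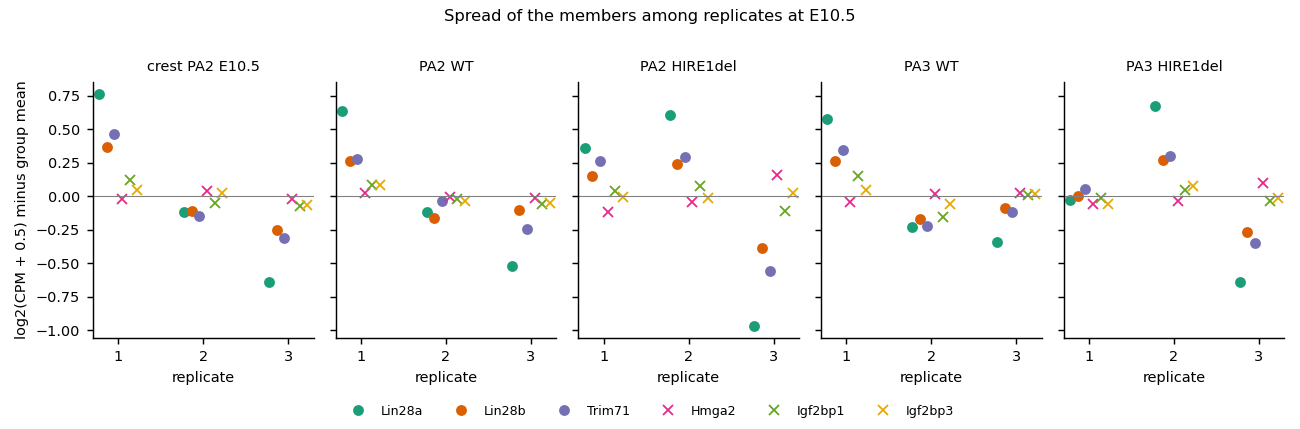
Deviation of each replicate from its group's mean in log2(CPM + 0.5) (vertical axis) for 6 members in the 5 groups at E10.5, with filled circles for Lin28a, Lin28b and Trim71 and crosses for Hmga2, Igf2bp1 and Igf2bp3; replicate numbers have no order. The circles lie on the same side of 0 in nearly every library and farther from 0 than most crosses.

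Sorted crest and whole arches were made and read differently, so their E10.5 values stand side by side without a test. Lin28a was at 16.4 to 44.4 CPM in sorted PA2 crest and 63.4 to 142 CPM in whole WT PA2, Lin28b at 181 ± 42.5 and 273 ± 45.5 CPM, and Trim71 at 88.7 ± 26.6 and 154 ± 28.6 CPM. For the other tested members the means were closer: Hmga2 was at 359 ± 8.76 and 354 ± 4.87 CPM, Igf2bp1 at 890 ± 65.4 and 852 ± 43.7 CPM, Igf2bp2 at 341 ± 4.36 and 305 ± 8.88 CPM, and Igf2bp3 at 399 ± 16.7 and 436 ± 22.8 CPM.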

How the data were processed

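Reads of 50 bases were single-end for the sorted crest libraries and paired-end for the whole-arch libraries. The deposited values are raw counts for each gene: the authors aligned reads to GRCm38 with the QuasR package, allowing splicing, counted them over UCSC known-gene exons, and applied no normalization. Counting was set to the opposite strand although the kit is described as unstranded, so overlapping antisense genes may not be told apart.

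The tables were fitted separately in edgeR 4.0.16 (R 4.3.3) with a mean for every group. A gene entered if 2 or more libraries reached 1 CPM, which left 13438 and 14383 genes, and all symbols were present in both tables with 0 unused value columns. TMM scaling, a two-sided quasi-likelihood test and Benjamini-Hochberg adjustment over all genes followed, with a call under 0.05. DESeq2 1.42.0, limma-voom (limma 3.58.1), other scalings, filters and thresholds, replicate blocks and the omission of each library were alternatives. On simulated counts in which 200 genes had been changed, each by 1 on the log2 scale, 98% were recovered for E14.5 against E10.5 (13051 genes) and 93.5% for HIRE1del against WT in PA2 (14100 genes). Of the unchanged genes, 11 and 15 were called. The simulated spread was the same for every gene, and far fewer genes changed than in the stage series. These shares therefore check the code and give no recovery for the real comparisons.

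Members and gene lists were chosen with earlier results of these data known. After the tables were opened, symbols of tailing enzymes were updated and listed hosts that span no let-7 or miR-125 hairpin were dropped. From each pathway list the text names up to 4 called genes in each direction with the largest change between E10.5 and E14.5, given replicate ranges that did not overlap and a mean log2 CPM of 1 or more. It also names the 5 genes most correlated with each of 4 members, the check genes of the deletion, and the 2 tested neighbours on each side of Igf2bp3. Mir99ahg, H19 and Dgcr8, and the genes richest in 8mers, were named after their values were seen. One transcript from GENCODE M21 gave the 3′ UTR of a gene, which 94.6% of the tested genes had. A gene with 0 counts was bounded at 3 counts, which covers counting error only.

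PA2 and PA3 libraries of the same genotype and number deviated together (r from 0.213 to 0.382 over 6 pairs), and stage libraries of the same number did not (-0.312 to 0.202). Libraries of the same number but different genotype gave r from -0.202 to 0.276, so the 2 ranges overlap. The counts of no replicate pair agreed within sampling noise.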

Additional observations from a re-analysis of the deposited data

How the results depend on the processing

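Over all repeats of the members' 68 comparisons, 54 lost a call, 8 gained one, and 0 called values changed sign. The other 1172 kept their side of the threshold, but differences that were not called crossed 0 under some settings, such as Igf2bp2 between E12.5 and E14.5 (-0.06 to 0.11) and Lin28a for HIRE1del in PA2 (-0.39 to 0.30). For the difference between stage steps, the 5 members called became 3 at an adjusted p under 0.01, 2 when a log2 fold change of at least 1 was also asked, 2 with total counts only, and 3 to 5 when single libraries were left out. For PA3 against PA2 in WT, the 4 became 2 at 0.01, 0 with that fold change, and 2 to 4 with single libraries left out, and in HIRE1del the 6 became 0 with that fold change. Of the listed genes called between E10.5 and E14.5, the tail and decay enzymes came to 3 at 0.01, 0 with the fold change, and 3 to 5 with single libraries left out (3 without replicate 3 of E10.5 or of E14.5). Precursors and hosts came to 3 at 0.01, 1 with the fold change, 9 without a filter, 3 with 1 CPM in every library, and 3 to 5 with single libraries left out (3 without replicate 1 of E14.5). With the fold change the machinery came to 6, the other let-7 targets to 15 and the Igf2bp-bound RNAs to 1.

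The ratio of Lin28a to Lin28b changed its difference to 0.92 with 2 CPM added, and that of Hmga2 to Hmga1 to 0.43 with 0.1 CPM added and from -0.22 to 0.0408 with single libraries left out (0.0408 without replicate 3 of E14.5). Lin28a between E12.5 and E14.5 was lost in limma-voom and at 0.01. Trim71 in that step was called by DESeq2, with 1 CPM in every library, and from its 6 libraries alone. Hmga2 between E10.5 and E14.5 was called by DESeq2, with total counts only and without a filter. Over all genes, DESeq2 called 162 (PA2), 94 (PA3) and 29 (difference) for HIRE1del in place of 63, 31 and 7, and a block on replicate number 105, 54 and 12. With total counts only, genes called between E12.5 and E14.5 were 3517 higher and 5613 lower in place of 4382 and 4442, and between the steps 1849 and 4314 in place of 2760 and 3076. The replicate block that pairs PA2 with PA3 left the members called at 4 (WT), 6 (HIRE1del) and 0 (difference), with 26 genes in all for the difference. A block on stage replicate numbers, which do not pair, gave 7, 5, 7 and 5 members for the 3 stage comparisons and the difference of steps, in place of 7, 5, 6 and 5, the added call being Hmga2 between E10.5 and E14.5 (-0.27, edgeR adjusted p = 0.0237). The causes of these shifts were not tested. Depth limits what can be said of Lin28a below the floor at E14.5.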
